A study of Homo sapiens with 12 samples.

Results

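Kidney developmental transcription factors are the DNA-binding proteins and coactivators that build the embryonic kidney, and 8 of their genes are described here out of 19775 genes measured: PAX2, PAX8, LHX1, GATA3, WT1, EYA1, SALL1 and OSR1. They were chosen by name, with earlier results of these data known. Each was read from the probe set with the highest mean log2 intensity over all 12 arrays among probe sets naming that gene alone. The cells were HEK293T, a line derived from human embryonic kidney that carries the SV40 large T antigen. Each array held total RNA taken 48 hours after transfection with 25 nM siRNA. The control group (titled wt, 3 arrays) had received non-targeting siRNA, and the sample labels number that siRNA differently on each control array while the protocol names 1 only. The 3 other groups (titled si74, si75 and si76, 3 arrays each) had received siRNA s18074, s18075 or s18076 against MED26, a subunit of the Mediator complex that links transcription factors to RNA polymerase II. The labels do not say that replicates were separate cultures, so the spread behind each p-value is that of these arrays and could be technical only.

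In the embryo OSR1 marks the intermediate mesoderm from which the kidney arises, and PAX2, PAX8 and LHX1 then set up the nephric duct, with GATA3 acting in the duct and the ureteric bud that grows from it. EYA1, a transcriptional coactivator and phosphatase, and the zinc finger repressor SALL1 keep the nephron progenitors of the metanephric mesenchyme, where WT1 is also needed before it becomes a podocyte factor. HEK293T cells are a transformed line and not a model of any single stage of this series.

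The knockdown and the cell type were checked first. MED26 fell with every siRNA on the probe set that represents it. Its log2 change was -1.10 ± 0.06 (SE of the limma model) under s18074, -0.57 ± 0.06 under s18075 and -1.08 ± 0.06 under s18076. The fall rests on 1 of 3 MED26 probe sets: 1 other gave -0.27, 0.30 and -0.30, and the last 0.33, 0.13 and 0.18, and none of these passed over all one-gene probe sets. Both others were dim, with control means of 6.22 and 5.38 (log2 intensity), against 9.85 for the probe set that fell. Of 18 markers of the differentiated nephron 6 lay above the background limit defined in the next paragraph, namely LRP2, SCNN1A, EPCAM, KRT7, KRT8 and KRT18, while AQP1, AQP2 and CUBN did not. Of 14 neuronal markers 9 lay above it, of 14 fibroblast markers 7 and of 9 blood cell markers 1. In the mean of the 3 siRNAs, 3 neuronal markers fell and 1 rose, 1 nephron marker rose (LRP2) and 1 fell (EPCAM), 2 fibroblast markers fell and 0 blood markers passed in limma at an adjusted p under 0.05. These counts stand beside 20.3% of all genes called in the mean and 30.1% of those above background. None is read as a difference from these shares. The neurofilament genes NEFM (-1.09 ± 0.05) and NEFL (-0.80 ± 0.05) and the growth cone gene GAP43 (-0.46 ± 0.05) fell in the mean, and with each siRNA, while SYT1 rose (0.33 ± 0.06); these 4 are named after their values were seen. The summed neuronal signal hides this, at a log2 of 13.7 to 13.9 in the controls and 13.6 to 13.9 over all 12 arrays, since TUBB3 leads it. The part of these shifts in the values below was not tested. Array medians lay between 72.3 and 73.8, the arrays give no read depth, and their number limits the precision.

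Of the 8 members 7 were above background in the control arrays. As the files used here hold no detection calls, the limit was taken from olfactory receptor genes, which are silent in nearly all tissues: it is the 95th percentile of 107 olfactory receptor probe sets, a log2 intensity of 6.35, and a gene had to exceed it in each of the 3 control arrays. Of all genes 61.5% did so. SALL1 averaged 8.99 ± 0.14 (SD, n = 3, log2 intensity) in the controls, GATA3 8.96 ± 0.07, WT1 8.45 ± 0.10, EYA1 8.31 ± 0.08 and PAX8 8.28 ± 0.10, each at least 1.92 above the limit. PAX2 at 6.54 ± 0.07 and LHX1 at 6.54 ± 0.09 exceeded it by 0.18 and 0.19 only, and neither did at the stricter 99th percentile (6.63), which left 5 members. OSR1 was not above background, at 4.39 ± 0.23, close to the median olfactory receptor probe set (4.58). Signals of different probe sets are not a ranking of the genes, because each probe set responds in its own way.

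**Figure D1:**
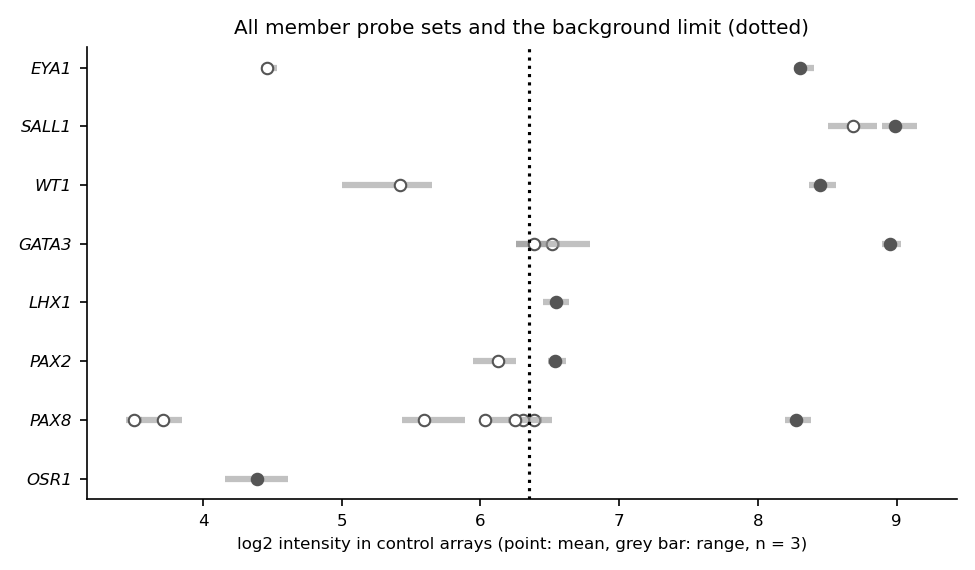
Log2 intensity of all 21 member probe sets in the 3 control arrays, with points for means, grey bars for the range and filled points for the probe set that represents the gene; the dotted line is the background limit of 6.35. SALL1 is the gene with a second probe set clear of the limit, and OSR1 lies left of it.

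The members had 21 probe sets in all, and 13 of them did not represent their gene. Of these 13 only the second SALL1 probe set was above the limit in every control array, at 8.69 ± 0.18 (SD, n = 3). The 7 further PAX8 probe sets averaged between 3.50 and 6.38 in the controls, against 8.28 for the one that represents the gene. PAX8 was therefore above background on 1 of its 8 probe sets. GATA3, WT1, EYA1 and PAX2 likewise rested on 1 probe set each, and LHX1 and OSR1 had 1 in all. When all probe sets of a gene were averaged, 4 members exceeded the limit: LHX1, GATA3, WT1 and SALL1.

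EYA1 was the member that fell with all 3 siRNAs, most with s18075. Its probe set (214608_s_at) read 8.26, 8.40 and 8.26 in the control arrays and 7.41, 7.23 and 7.26 with s18075 (log2 intensity, replicates 1 to 3). With s18074 it read 7.79, 7.94 and 7.98, and with s18076 7.99, 7.99 and 8.03. All 9 knockdown arrays were below all 3 controls, and the s18075 arrays were below every other array; arrays and controls do not overlap in 30.0% of all genes for s18074, 32.2% for s18075 and 32.1% for s18076. EYA1 fell by 1.01 ± 0.07 (log2, SE) with s18075, which left 49.7% of the control signal (limma, Benjamini-Hochberg adjusted p over all genes = 1.84e-06). It fell by 0.40 ± 0.07 with s18074, to 75.5% (adjusted p = 0.00225), and by 0.31 ± 0.07 with s18076, to 80.8% (adjusted p = 0.00854).

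The size of the EYA1 fall differed between siRNAs. Pairs of siRNAs differed in 6.37% of all genes (s18075 and s18074), 11.0% (s18076 and s18075) and 5.11% (s18076 and s18074). With s18075 EYA1 was lower than with s18074 by a log2 difference of -0.60 ± 0.07 (limma adjusted p = 0.000207), and with s18076 it was higher than with s18075 by 0.70 ± 0.07 (adjusted p = 3.82e-05). Between s18076 and s18074 the difference was 0.10 ± 0.07, with a 95% interval from -0.06 to 0.25 (adjusted p = 0.591). In order of level, EYA1 was thus highest in controls and lowest with s18075, with s18076 and s18074 between them and not separated by the test. MED26 ran the other way between siRNAs: under s18075 its level exceeded that under s18074 by 0.54 ± 0.06 (adjusted p = 0.000256). With s18075, 38 of the 19775 genes had a more negative change than EYA1, and with s18074 and s18076 393 and 1019 had.

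The fall of EYA1 rests on 1 probe set. The other (1569736_at) was dim, at 4.46 ± 0.06 in the controls (SD, n = 3), and did not fall: it gave log2 changes of 0.02, 0.14 and 0.28 with s18074, s18075 and s18076, the last of which passed (limma adjusted p = 0.0298 over all one-gene probe sets). With both probe sets averaged, EYA1 was still called with s18075, at -0.43, but not with s18074 (-0.19, adjusted p = 0.0869; 0.000671 to 0.0869 over 24 alternatives) or s18076 (-0.01, adjusted p = 0.939; 0.00221 to 0.939 over 24).

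SALL1 fell with s18075 alone among the siRNAs tested. Its first probe set (229273_at) read 9.15, 8.89 and 8.92 in the controls and 8.65, 8.54 and 8.65 with s18075 (log2 intensity). With s18074 the arrays read 8.84, 8.99 and 8.96, and with s18076 8.91, 8.97 and 8.87. The s18075 arrays lay below all others, while the other 3 groups overlapped. Arrays of s18075 and controls do not overlap in 32.2% of all genes, and the share below all other arrays was not counted. The change was -0.38 ± 0.07 (log2, SE) with s18075, which left 77.1% of the control signal (limma adjusted p = 0.00378), against -0.06 ± 0.07 with s18074 and -0.07 ± 0.07 with s18076. The F test between siRNAs passed (adjusted p = 0.0175), and SALL1 was lower with s18075 than with s18074 by a log2 difference of -0.32 ± 0.07 (adjusted p = 0.0238) and lower than with s18076 by the reverse contrast of 0.31 ± 0.07 (adjusted p = 0.0181).

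The second SALL1 probe set (206893_at), equally clear of background, read 8.86, 8.69 and 8.51 in the controls and 8.50, 8.48 and 8.39 with s18075. Its change was -0.23 ± 0.08, in the same direction, and it did not pass (limma adjusted p = 0.0890 over all one-gene probe sets). The control arrays spread by 0.14 and 0.18 (SD, log2) on the 2 probe sets, with replicate 1 highest on both. Among replicate 1 arrays alone the s18075 difference was -0.51 for SALL1 and -0.85 for EYA1, and in a fit on replicates 2 and 3 only it was -0.31 (limma adjusted p = 0.0197) and -1.09 (adjusted p = 0.000187). Without s18075 replicate 2 the F test no longer passed for SALL1 (adjusted p = 0.0955; 0.00465 to 0.0955 over 24 alternatives).

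**Figure D2:**
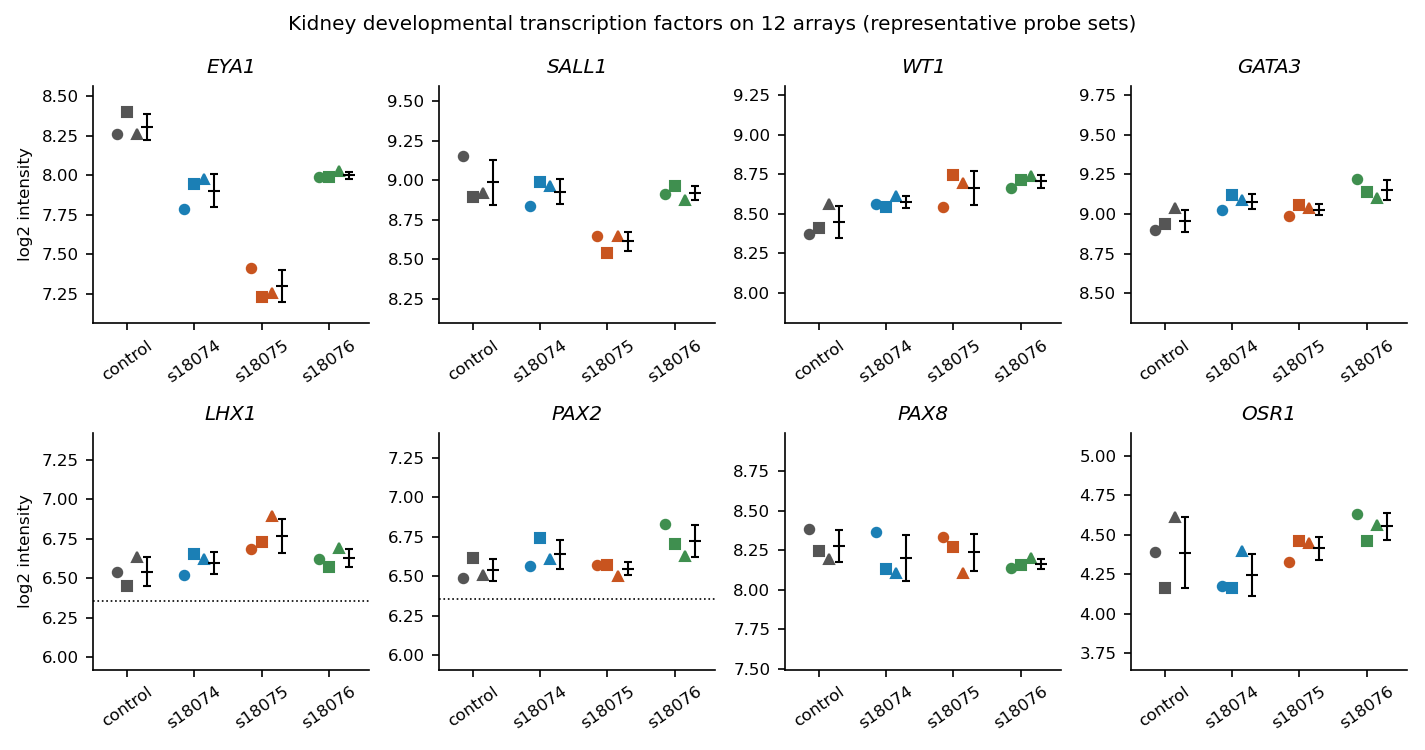
Log2 intensity of the 8 members on the representative probe set in each of the 12 arrays; circles, squares and triangles are replicates 1, 2 and 3, black bars are the mean ± SD of 3 arrays, every panel spans 1.5 log2 units, and the dotted line is the background limit where it falls in the panel. The s18075 arrays of EYA1 and SALL1 lie below all other arrays. PAX8 overlaps between all groups, and OSR1 between each siRNA and the controls.

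WT1, a zinc finger factor of the kidney mesenchyme and the podocyte, was the member that rose in the mean of the 3 siRNAs, by 0.20 ± 0.06 (log2, SE; limma adjusted p = 0.0226). Its probe set (206067_s_at) read 8.37, 8.41 and 8.56 in the controls, 8.56, 8.54 and 8.61 with s18074, 8.54, 8.75 and 8.69 with s18075, and 8.66, 8.71 and 8.74 with s18076. The s18076 arrays were all above the controls, and the arrays of s18074 and s18075 overlapped with them. Arrays of s18076 and controls do not overlap in 32.1% of all genes. WT1 rose by 0.26 ± 0.07 with s18076 (adjusted p = 0.0182) and by 0.21 ± 0.07 with s18075 (adjusted p = 0.0486), and gave 0.13 ± 0.07 with s18074 (adjusted p = 0.274). The F test found no difference between siRNAs that passed (adjusted p = 0.440). The rise is small: it was called in 19 of 24 alternatives for the mean, with adjusted p up to 0.360, in 17 for s18076 and in 9 for s18075. Leaving out control replicate 1 or control replicate 2 ended it in the mean (adjusted p = 0.115 and 0.100), and the second WT1 probe set, below background, gave 0.03.

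For WT1, a start site window can be shown beside the rise. It is the RefSeq window at the 5′ end of the gene (GRCh38.p14, chr11:32435490-32435789, minus strand), from 250 bases before to 50 after the start, and the capitals mark the GC box GGGCGG, which here lies on the opposite strand as CCGCCC.
WT1: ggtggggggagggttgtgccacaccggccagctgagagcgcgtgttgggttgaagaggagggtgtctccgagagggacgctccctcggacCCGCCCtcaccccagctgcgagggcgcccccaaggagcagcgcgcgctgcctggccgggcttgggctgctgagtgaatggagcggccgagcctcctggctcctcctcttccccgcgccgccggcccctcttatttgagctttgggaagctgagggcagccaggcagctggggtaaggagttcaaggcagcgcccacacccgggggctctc
The motif was searched on both strands, and 45.0% of the 35116 windows in that table hold it, so it is common among start site windows. It was found in 1 of 4 WT1 windows, 4 of 6 GATA3 windows, 0 of 2 PAX2 windows and 0 of 1 PAX8 windows. The arrays do not show which start site was used.

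GATA3, a zinc finger factor of the nephric duct, rose with s18076 by 0.20 ± 0.06 (log2, SE; limma adjusted p = 0.0307). Its probe set (209604_s_at) read 8.90, 8.94 and 9.04 in the controls and 9.22, 9.14 and 9.10 with s18076, so the groups did not overlap. The same holds for 32.1% of all genes with s18076. The change was 0.12 ± 0.06 with s18074, 0.07 ± 0.06 with s18075 and 0.13 ± 0.05 in the mean (adjusted p = 0.0723). Replicate 1 arrays alone gave 0.33 with s18076, and replicates 2 and 3 gave 0.13 (adjusted p = 0.193). The GATA3 rise was called in 16 of 24 alternatives, and leaving out control replicate 1, control replicate 2, s18076 replicate 1 or s18076 replicate 2 ended it (adjusted p from 0.0642 to 0.0987; 0.0106 to 0.612 over 24). The other GATA3 probe sets (209602_s_at and 209603_at), not above the limit in every control array, gave 0.06 and -0.06 with s18076. Neither passed (limma adjusted p = 0.813 and 0.752 over all one-gene probe sets). With all GATA3 probe sets averaged, the s18076 change was 0.07 (limma adjusted p = 0.612).

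LHX1, a LIM homeodomain factor of the early nephric lineage, rose with s18075 by 0.23 ± 0.07 (log2, SE; limma adjusted p = 0.0472). It read 6.54, 6.45 and 6.64 in the controls and 6.68, 6.73 and 6.89 with s18075, so all s18075 arrays were above the controls, all of them near the background limit. For s18075, arrays and controls do not overlap in 32.2% of all genes. LHX1 gave 0.05 ± 0.07 with s18074 and 0.09 ± 0.07 with s18076, and the F test between siRNAs did not pass (adjusted p = 0.252). The rise was called in 10 of 24 alternatives, with adjusted p from 0.0102 to 0.193. The arrays whose single removal ended it were control 1 and 2, s18074 replicates 2 and 3, s18075 replicates 2 and 3, and each of the 3 s18076 arrays.

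The paired box factors PAX2 and PAX8, which share the tasks of the early nephric duct, passed with no siRNA. PAX2 read 6.49, 6.62 and 6.51 in the controls and 6.83, 6.70 and 6.63 with s18076, where the change was 0.18 ± 0.07 (log2, SE; limma adjusted p = 0.0859) with a 95% interval from 0.03 to 0.33. These s18076 arrays did not overlap with the controls, as in 32.1% of all genes. With s18074 the PAX2 change was 0.10 ± 0.07, and with s18075 it was 0.01 ± 0.07. PAX8 gave -0.08 ± 0.08, -0.04 ± 0.08 and -0.11 ± 0.08 with s18074, s18075 and s18076, and its arrays overlapped between all groups. The PAX8 interval that reached lowest, with s18076, ran from -0.29 to 0.07. OSR1, below background, gave -0.14 ± 0.10, 0.03 ± 0.10 and 0.16 ± 0.10, all at the level of background signal.

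**Figure D3:**
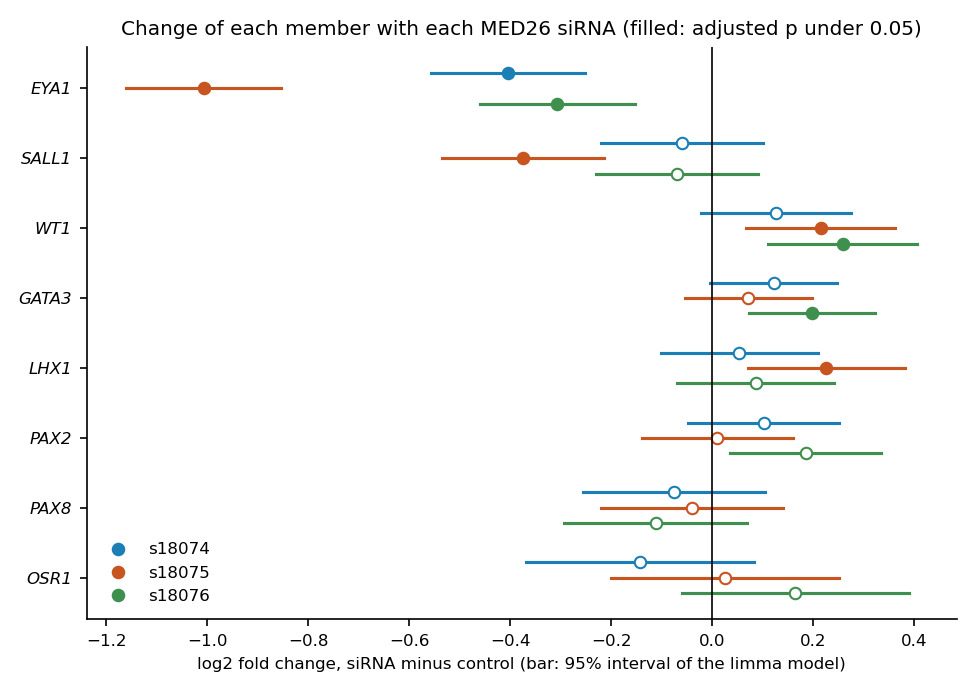
Log2 fold change of each member with each siRNA against control; bars are 95% intervals of the limma model over 12 arrays, and filled points passed at an adjusted p under 0.05. EYA1 lies left of 0 with all 3 siRNAs and SALL1 with s18075, and the filled points of WT1, GATA3 and LHX1 lie between 0.20 and 0.26.

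Counted together, 1 of 8 members was called with s18074 (EYA1), where 14.2% of all genes were, 4 of 8 with s18075, where 16.9% were, and 3 of 8 with s18076, where 18.9% were. The mean of the 3 siRNAs called 2 of 8 against 20.3% of all genes, and the F test called 2 of 8 against 12.6%. As 7 members are above background, the shares among genes above background are given too: 21.3% with s18074, 25.1% with s18075, 28.1% with s18076, 30.1% in the mean and 19.1% by the F test. With s18075, EYA1 and SALL1 fell (8.77% of all genes fell) while WT1 and LHX1 rose (8.11% rose). With s18076, EYA1 fell (8.62% fell) while WT1 and GATA3 rose (10.3% rose). With s18074, 7.55% of all genes fell, EYA1 among them, and 6.67% rose. In the mean 10.2% fell and 10.2% rose. Only EYA1 and SALL1 of the 4 remained with s18075 when any of the arrays listed for LHX1 was left out, and only EYA1 of the 3 with s18076 without control replicate 1, control replicate 2 or s18076 replicate 2. The median absolute log2 change of the 8 members was 0.14 with s18075, 0.17 with s18076 and 0.11 with s18074, beside 0.11, 0.11 and 0.10 over all genes. All siRNA comparisons use the same 3 control arrays.

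Genes whose log2 values ran most like each member over the 12 arrays were looked up among 12460 genes with a control mean above the limit, as a description, since these points share groups and replicates. Those most like EYA1 were CDK19, a kinase of the Mediator kinase module, with a Pearson r of 0.987, ARHGEF39 (0.982) and CNRIP1 (0.982). CDK19 changed by -0.27, -0.80 and -0.23 (log2) with s18074, s18075 and s18076. For SALL1 they were PABIR2 (0.964), CDC14B (0.951) and SLC7A6 (0.947), and EYA1 and SALL1 correlated with each other at 0.860. The genes most like WT1 were S100A13 (0.939), VAMP8 (0.937) and C3orf70 (0.931), and those most like GATA3 were PSMD1 (0.948), SLC25A25 (0.942) and HAGH (0.933). MAP7D2 (0.962), DNAAF4 (0.896) and CPT2 (0.875) ran most like LHX1, FAM219A (0.897), SLC39A9 (0.893) and FAM110A (0.860) most like PAX2, and LINC01210 (0.962), WFDC12 (0.936) and ARHGDIB (0.931) most like PAX8.

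Other genes of the same families were read from a list of relatives. Of 26 such genes 17 were above background, and in the mean of the 3 siRNAs 5 rose and 1 fell. In this and the lists that follow, the counts stand beside 20.3% of all genes, and 30.1% of those above background, called in the mean, and none is read as a difference from them. GATA6 rose by 0.35 ± 0.07 (log2, SE), PAX6 by 0.25 ± 0.05, LHX2 by 0.24 ± 0.07, LHX8 by 0.24 ± 0.07 and GATA2 by 0.23 ± 0.05, while OSR2, the other odd-skipped gene, fell by 0.18 ± 0.05. GATA6, GATA2 and LHX8 differed between siRNAs by the F test (limma adjusted p = 0.00445, 0.00320 and 0.00468): they gave 0.61, 0.43 and 0.53 with s18076 and 0.10, 0.01 and 0.05 with s18075. With s18075 0 of the 26 rose and 1 fell in limma, where 8.11% of all genes rose and 8.77% fell. Among genes above background 25.1% were called with s18075. The gene that fell was EYA4 at -0.19 (limma adjusted p = 0.0388), named here after its values were seen. EYA4 also fell with s18074 (-0.19, limma adjusted p = 0.0449). In the mean the list had a median of 0.04, beside 0.00 for all genes.

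Among 15 measured factors of the nephron progenitors and stroma 1 rose and 1 fell in the mean. CITED1, a coactivator that marks nephron progenitors, fell by 0.33 ± 0.05 (log2, SE), most with s18074 (-0.52) and least with s18075 (-0.14), and the F test passed (limma adjusted p = 0.00381). HOXC10 rose by 0.33 ± 0.06. SIX2 and DACH1, whose family proteins act with EYA proteins, did not pass in the mean (adjusted p = 0.220 and 0.0934). Among 20 measured factors of duct, tubule and podocyte 2 rose and 1 fell. TFAP2A rose by 0.32 ± 0.05 and ETV5, a target of RET signalling in the ureteric bud, by 0.40 ± 0.10 from a level below the limit. Both differed between siRNAs (F test adjusted p = 0.000226 and 0.00687), with 0.04 and 0.02 under s18075. SOX4 fell with all 3 siRNAs, by 0.18, 0.51 and 0.28 with s18074, s18075 and s18076, and most with s18075 (F test adjusted p = 0.00386).

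Of 29 measured signalling genes of kidney induction 6 rose and 2 fell in the mean of the 3 siRNAs. GFRA1, the coreceptor that binds GDNF for RET, rose with each siRNA, by 0.49 ± 0.06 (log2, SE) in the mean, as did ROBO2, a receptor for SLIT ligands, by 0.46 ± 0.07. ITGA8, the integrin chain of the mesenchyme that meets the ureteric bud, rose in the mean by 0.51 ± 0.08 and the ligand SLIT2 by 0.37 ± 0.11. ITGA8 did not pass with s18075 (0.21, limma adjusted p = 0.178) and differed between siRNAs (F test adjusted p = 0.00959). SLIT2 did not pass with s18076 (0.18, limma adjusted p = 0.411). SPRY1, an inhibitor of RET signalling, fell with each siRNA, by 0.33 ± 0.05 in the mean. LGR5, a receptor of the WNT pathway, also fell and differed between siRNAs (limma F test adjusted p = 7.67e-06), but it started at 6.64, close to the background limit, and ended below it with s18076, so no size is given. With s18075 4 of these genes rose and 4 fell, where 16.9% of all genes were called.

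**Figure D4:**
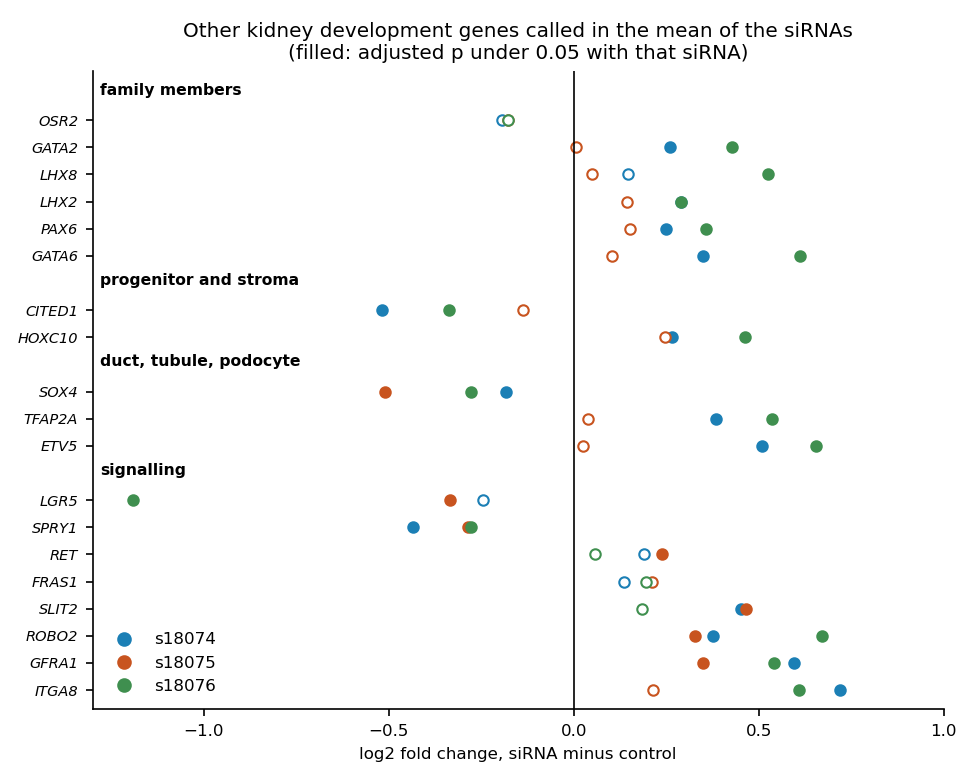
Log2 fold change with each siRNA of the 19 listed kidney development genes, other than the members, that were called in the mean of the 3 siRNAs; filled points passed at an adjusted p under 0.05 with that siRNA. GATA2, GATA6, LHX8, TFAP2A and ETV5 lie near 0 with s18075 and to the right with s18076, and SOX4 lies farthest left with s18075.

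Of 26 known protein partners of the members 5 rose and 3 fell in the mean. BASP1, a corepressor of WT1, rose by 1.05 ± 0.07 (log2, SE), the single-stranded DNA binding protein SSBP2 by 0.30 ± 0.06, the coactivator CITED2 by 0.26 ± 0.06 and LDB1, which bridges LIM proteins, by 0.24 ± 0.06. KMT2D, a histone methyltransferase, fell by 0.33 ± 0.09 and MTA1, of the NuRD complex that SALL1 recruits, by 0.21 ± 0.04. With s18074, s18075 and s18076 KMT2D gave -0.17, -0.61 and -0.21, passing with s18075 only, and LDB1 gave 0.24, 0.04 and 0.44. KMT2D, LDB1 and BASP1 differed between siRNAs (limma F test adjusted p = 0.0296, 0.00966 and 0.0375). BASP1 and MTA1 were called in the same direction with all 3 siRNAs. Of 14 measured genes reported as targets of WT1 or PAX factors 3 rose and 0 fell in the mean of the 3 siRNAs in limma: EGR1 by 0.28 ± 0.06, PDGFA by 0.21 ± 0.07 and SLC5A5 by 0.19 ± 0.06. EGR1 gave 0.39, -0.03 and 0.47 with s18074, s18075 and s18076 (F test adjusted p = 0.000989). IGF1R, named after its values were seen, was not called in the mean (limma adjusted p = 0.176), where changes of opposite sign cancel. It fell with s18074 (-0.53, adjusted p = 0.000353) and rose with s18075 (0.36, adjusted p = 0.00364) and s18076 (0.53, adjusted p = 0.000216). For IGF1R the F test between siRNAs gave an adjusted p of 1.64e-06. The medians of both lists in the mean were 0.00 and 0.04.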

How the data were processed

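The authors deposited 1 linear intensity per probe set and array; the submitters' processing notes name RMA and affy 1.24.2. RMA brings all arrays to 1 distribution, which hides any shift common to most genes. Values were turned into log2 with no pseudocount added. Of 54675 probe sets 41091 name 1 gene in the platform annotation, giving 19775 genes. Over all genes, limma 3.58.1 (R 4.3.3) estimated the 4 groups' means with 8 residual degrees of freedom, with Benjamini-Hochberg adjustment and a threshold of 0.05. The fit was run on simulated data with independent noise on each array. That run cannot speak to deviations that replicate 1 arrays share. The members and gene lists were chosen with earlier results of these data known. The rule named all members, the 6 largest called changes of each kidney gene list (markers as counts), up to 3 more called with all siRNAs, and the 3 most correlated genes. Alternatives changed the probe set rule, dim filter, scaling, pseudocount (32), variance model, arrays and threshold; the differences within replicate 1 arrays were added after seeing the data. The build behind the array annotation is not given in the sources used here; the WT1 window carries RefSeq's own.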

Additional observations from a re-analysis of the deposited data

Results flagged for a closer look

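EYA1 differed between the 3 siRNAs, with a limma F test adjusted p of 5.33e-05 and a range of 0.70 (log2) between the siRNA groups; it fell with all 3 and most with s18075. SALL1 also differed between the 3 siRNAs, with an F test adjusted p of 0.0175 and a range of 0.32, and fell with s18075.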

How the results depend on the processing

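Beside the stricter threshold of 0.01, 24 alternatives were run for each member (23 for OSR1, which is among the dimmest 40% of genes). EYA1 was called in all 24 with s18075, in the mean and by the F test, and SALL1 in all 24 with s18075; no called member changed sign. The counts of members called moved as follows, and the cause was not tested. Averaging all probe sets of a gene called 0 members with s18074, 0 with s18076 and 1 in the mean, and put 4 above background. With s18075, 2 members (EYA1 and SALL1) were called with p-values adjusted over all one-gene probe sets, with median-centred arrays, with the controls and s18075 alone in the fit, on replicates 2 and 3 only, and at an adjusted p under 0.01. With s18076, 1 member (EYA1) was called with only the controls and s18076 in the fit, on replicates 2 and 3 only and under 0.01. In the mean 1 member (EYA1) was called with the 3 siRNAs fitted as 1 group, on replicates 2 and 3 only and under 0.01. In the mean 4 members were called without the dimmest 40% of genes, with log2 of the value plus 32, and with array weights. The F test called 1 member under 0.01. Leaving out 1 array gave 1 to 1 members with s18074, 2 to 4 with s18075, 1 to 3 with s18076, 1 to 3 in the mean, 1 to 2 by the F test and 7 to 7 above background. The replicate number was not in the main fit. Deviations of same-numbered arrays correlated at 0.326 to 0.439 for number 1, at -0.02 to 0.25 for number 2 and at 0.03 to 0.17 for number 3. The number 1 arrays thus deviated together across groups. With the replicate number as a block 1, 4, 3, 2 and 2 members were called in the order of comparisons above, and 5019 genes in the mean against 4023. With replicate 1 alone set apart as a block 1, 4, 3, 3 and 2 members were called (GATA3 added in the mean), and 5309 genes in the mean and 3770 by the F test, against 4023 and 2489. Over all members, comparisons and settings, a call was lost 58 times and gained 10 times. Dim members (PAX2, LHX1, OSR1) and 3 arrays a group limit what could be called.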
